A study of Sus scrofa with 6 samples.

Results

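The 10 genes described here encode receptors and enzymes through which circulating hormones, nerves and the endothelium set the tone of arterial smooth muscle. They were taken by gene symbol from a table of 30477 pig genes, in which all 10 had a row, and the list was drawn up with earlier results of these data known. The constrictor receptors were AGTR1, EDNRA, ADRA1A and TBXA2R, the dilator receptors PTGIR and NPR1, and the dilator effectors GUCY1A1 and PRKG1. EDNRB has both roles, and NPR3 clears natriuretic peptides. Abdominal aorta was taken from male Wuzhishan miniature pigs that ate a normal chow diet (the NC group) or a diet rich in fat, cholesterol and fructose (the HFCF group) for 6 months. RNA of 3 pigs per group was sequenced with 1 library per pig, and no drug, surgery or altered allele is named for either group. The labels give an age of 3 to 4 months for both groups, whereas the methods give a greater age at purchase. The comparison asked how gene expression in the aortic wall differed after the HFCF diet.

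As background, angiotensin II, endothelin-1, noradrenaline and thromboxane A2 act on receptors coupled to Gq and G12/13, which raise calcium and its effect on myosin, so that the muscle contracts. Prostacyclin raises cyclic AMP, while nitric oxide and the natriuretic peptides raise cyclic GMP, and protein kinase G (PRKG1) then lowers calcium and its effect on myosin. Nitric oxide binds soluble guanylate cyclase, a dimer of an alpha subunit (GUCY1A1 or GUCY1A2) and the beta subunit GUCY1B1. The receptor for atrial and B-type natriuretic peptides, NPR1, is itself a guanylate cyclase, whereas NPR3 has no cyclase and takes the peptides up for breakdown.

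Levels are given as FPKM, fragments per length of exon and per number of mapped reads, which can therefore be compared between genes. Differences of log2(FPKM + 0.1) between the group means (HFCF minus NC), called log2 differences here, were tested with limma for 15384 genes whose mean reached 0.1 FPKM, and a gene was called at a Benjamini-Hochberg adjusted p under 0.05 over all of them. Between the HFCF and NC groups 28.9% of the tested genes were called, 22.8% higher and 6.16% lower in the HFCF group, and the median log2 difference of all genes was 0.32. Relative depths read from the lowest FPKM values lay between 1 and 1.37 in the NC group and between 1.03 and 1.07 in the HFCF group, with the first NC pig set to 1. The mitochondrial rRNA gene ENSSSCG00000018061 stood at 0.295 to 0.686 FPKM in the NC group and at 140.7 to 205.7 FPKM in the HFCF group. The other one, ENSSSCG00000018063, overlapped between the groups, at 112.8 to 372.5 FPKM and 101.0 to 130.5 FPKM. The part of library preparation in any result was not tested. The methods describe the same housing and meal schedule for both groups but no batches of tissue collection or sequencing. The p-values therefore measure only the spread between these 6 animals.

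Summed levels of cell type markers did not overlap between the diets for smooth muscle, macrophages, pericytes and T or B cells. The 10 markers of contractile smooth muscle, the cell type that defines the arterial media, summed to 16076 to 22886 FPKM in the NC group and to 8084 to 12986 FPKM in the HFCF group, with 7 of the 10 called lower. All 10 macrophage markers were called higher, and their sum was 47.3 to 59.1 FPKM against 714.8 to 1845 FPKM. Pericyte markers summed to 767.3 to 1233 FPKM in the NC group and 454.4 to 727.6 FPKM in the HFCF group, with 1 of 8 called lower. The largest part of this sum in every pig was RGS5, which overlapped between the groups and was not called (adjusted p = 0.273, by limma). T or B cell markers summed to 7.26 to 11.5 FPKM and 37.2 to 56.5 FPKM, with 2 of 8 called higher. Most of this sum in every pig was CD79A. None of the 10 endothelial markers was called by limma (2 had an unadjusted p under 0.05), with sums of 146.0 to 263.0 FPKM and 121.5 to 303.4 FPKM. Adipocyte markers summed to 302.3 and 420.5 FPKM in the first and second NC pigs, against 138.8 to 165.9 FPKM in the other 4 pigs. The first HFCF pig stood apart, with red blood cell markers summing to 2906 FPKM against 22.1 to 180.3 FPKM in the other 5 pigs, and it also had the highest sums of macrophage, endothelial and T or B cell markers. It had the highest value of NPR3, EDNRB and GUCY1A1 as well, whose log2 differences without it were 1.38, 0.89 and 0.63. In tissue RNA, fewer cells of a type and less RNA per cell cannot be told apart, and the part of these shifts in the values below was not tested.

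Of the 10 vasoactive genes, 1 was called, the clearance receptor NPR3, which rose in the HFCF group. All 10 passed the filter on low values. That is 10%, against 28.9% of all tested genes. The values of the groups did not overlap in 5 of the 10, namely NPR3, GUCY1A1 and EDNRB, which were higher, and ADRA1A and NPR1, which were lower in the HFCF group. Over all tested genes 48.2% had no overlap. The study set limits of a fold change above 2 or below 0.5 with a p under 0.05, and names no test. Applied here to ratios of group means and unadjusted limma p-values, these limits passed NPR3, GUCY1A1 and EDNRB as higher and ADRA1A as lower. That is 4 of 10, against 25.5% of all tested genes. The 4 constrictor receptors had a median log2 difference of -0.33 and the 4 dilator receptors and effectors one of -0.43, so both medians lay below that of all genes.

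**Figure D1:**
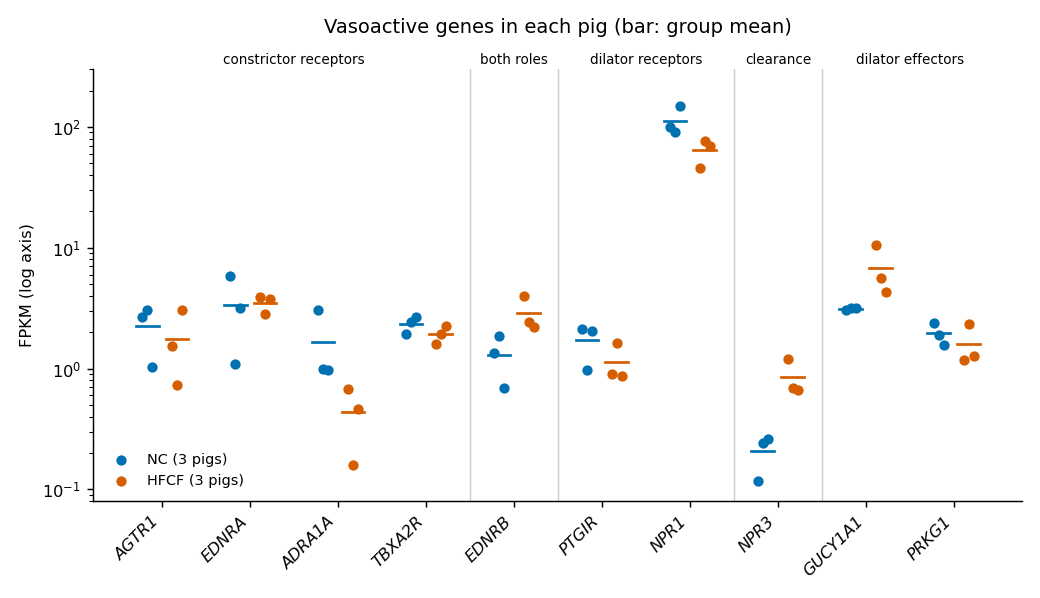
FPKM of the 10 genes in each of the 3 NC and 3 HFCF pigs on a log axis, ordered by role, with a bar at each group mean. NPR1 lies far above the others in every pig, and the 2 groups are apart for ADRA1A, EDNRB, NPR1, NPR3 and GUCY1A1.

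Among the constrictor receptors, ADRA1A differed most between the diets. ADRA1A (ENSSSCG00000009661), the alpha-1A adrenoceptor for noradrenaline, had 3.03, 0.996 and 0.967 FPKM in the NC pigs and 0.677, 0.160 and 0.466 FPKM in the HFCF pigs. Every HFCF pig was below every NC pig, but the first NC pig stood far above the other NC pigs. The group means were 1.66 ± 1.18 and 0.434 ± 0.260 FPKM (SD, n = 3 each), and the log2 difference was -1.67 (SE 0.57, adjusted p = 0.0673, by limma), which missed the threshold. Its adjusted p ranged from 0.028 to 0.432 over 16 alternative analyses and was under 0.05 in 4 of them, the 3 rescalings between libraries and the fit with a replicate block.

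The other constrictor receptors gave no difference beyond the spread between pigs. AGTR1 (ENSSSCG00000011695), the main angiotensin II receptor of vessels, had 2.67, 3.02 and 1.02 FPKM in the NC pigs and 1.53, 0.730 and 3.04 FPKM in the HFCF pigs. High and low values occurred in both groups, and the log2 difference of -0.40 (95% interval -1.76 to 0.96, adjusted p = 0.635, by limma) became 0.08 without the second HFCF pig. EDNRA (ENSSSCG00000009031), the endothelin receptor of smooth muscle, had 5.87, 1.10 and 3.18 FPKM in the NC pigs and 3.92, 2.83 and 3.78 FPKM in the HFCF pigs. The second NC pig was the lowest of all 6 and the first the highest, so the HFCF values lay within the NC range. Its log2 difference was 0.32 (95% interval -0.97 to 1.61, adjusted p = 0.691, by limma), equal to the median of all genes, and it was -0.31 without the second NC pig. TBXA2R (ENSSSCG00000033759), the thromboxane receptor, was the least variable of the 4 across pigs, with 1.92, 2.42 and 2.68 FPKM in the NC group and 1.60, 1.95 and 2.25 FPKM in the HFCF group. Its log2 difference was -0.26 (95% interval -0.82 to 0.29, adjusted p = 0.436, by limma). These intervals still allow changes of more than 1 log2 unit for AGTR1 and EDNRA.

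EDNRB is the endothelin receptor that releases nitric oxide when on endothelium and constricts when on smooth muscle, and tissue RNA does not show which cell carried it. EDNRB (ENSSSCG00000009477) had 1.35, 1.85 and 0.694 FPKM in the NC pigs and 3.98, 2.45 and 2.20 FPKM in the HFCF pigs. All HFCF values lay above all NC values, with the highest in the first HFCF pig, which also had the highest macrophage and endothelial marker sums. The means were 1.30 ± 0.578 and 2.88 ± 0.966 FPKM (SD, n = 3 each), and the log2 difference of 1.14 (SE 0.39, adjusted p = 0.0689, by limma) missed the threshold. Leaving out single pigs gave values from 0.78 to 1.42.

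Of the dilator receptors, NPR1 was by far the most abundant of the 10 genes, and its difference between the diets missed the threshold. NPR1 (ENSSSCG00000006572) had 99.5, 91.1 and 147.9 FPKM in the NC pigs and 45.6, 76.5 and 69.3 FPKM in the HFCF pigs. Every HFCF pig was below every NC pig, the lowest being the first HFCF pig, which also had the lowest smooth muscle marker sum. Within the groups NPR1 did not follow that sum. The third NC pig had the lowest sum of the NC group but the highest NPR1. The third HFCF pig had the highest sum of the HFCF group, but the second had the highest NPR1. The means were 112.8 ± 30.7 and 63.8 ± 16.2 FPKM (SD, n = 3 each), and their log2 difference was -0.82 (SE 0.26, adjusted p = 0.0538, by limma), or -1.14 relative to the median of all genes. The adjusted p of NPR1 ranged from 0.0204 to 0.323 over 16 alternatives and was under 0.05 in 4 of them, the 3 rescalings between libraries and the stricter filter of a mean FPKM of at least 1.

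PTGIR (ENSSSCG00000026602), the prostacyclin receptor, had 2.11, 0.969 and 2.06 FPKM in the NC pigs and 0.897, 1.63 and 0.868 FPKM in the HFCF pigs. One pig of each group lay among the values of the other group, and the log2 difference was -0.54 (95% interval -1.46 to 0.39, adjusted p = 0.338, by limma). The interval does not exclude a fall to less than the 0.5-fold limit of the study.

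NPR3 (ENSSSCG00000036201) had the lowest level of the 10 genes in the NC group and the only call. It had 0.117, 0.240 and 0.263 FPKM in the NC pigs and 1.21, 0.690 and 0.670 FPKM in the HFCF pigs. The lowest HFCF pig was above the highest NC pig, and the NC mean alone passed the filter on low values. The means were 0.207 ± 0.0787 and 0.856 ± 0.306 FPKM (SD, n = 3 each), a ratio of 4.15 and a log2 difference of 1.63 (SE 0.38, adjusted p = 0.0193, by limma), or 1.31 more than the median over all genes. The rise was above 0 in all 15 alternatives that tested NPR3, between 0.61 with a pseudocount of 1 and 2.79 relative to smooth muscle markers. Its adjusted p (limma) ranged from 0.00156 to 0.0699 and was 0.05 or more in 3 of them. These were quantile normalization, with 0.0699, the replicate block, with 0.065, and the fit without the first NC pig, with 0.0645, where the log2 difference was 1.40.

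Neither of the dilator effectors GUCY1A1 and PRKG1 passed the threshold. GUCY1A1 (ENSSSCG00000008866), the alpha-1 subunit of soluble guanylate cyclase, had 3.08, 3.18 and 3.15 FPKM in the NC pigs and 10.6, 5.64 and 4.26 FPKM in the HFCF pigs. The NC pigs hardly differed from each other, whereas the HFCF pigs spread widely and all lay above them. The means were 3.14 ± 0.0552 and 6.84 ± 3.34 FPKM (SD, n = 3 each), and their log2 difference was 0.995 (SE 0.33, adjusted p = 0.0585, by limma), which missed the threshold. It was 0.63 without the first HFCF pig. Without the third HFCF pig it was 1.28 and passed the threshold (adjusted p = 0.0305, by limma), within a range of 0.00206 to 0.23 over 16 alternatives. PRKG1 (ENSSSCG00000010429), the kinase activated by cyclic GMP, had 2.39, 1.91 and 1.56 FPKM in the NC pigs and 1.17, 2.35 and 1.28 FPKM in the HFCF pigs. The second HFCF pig lay among the NC pigs, and the log2 difference was -0.32 (95% interval -1.09 to 0.44, adjusted p = 0.489, by limma).

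**Figure D2:**
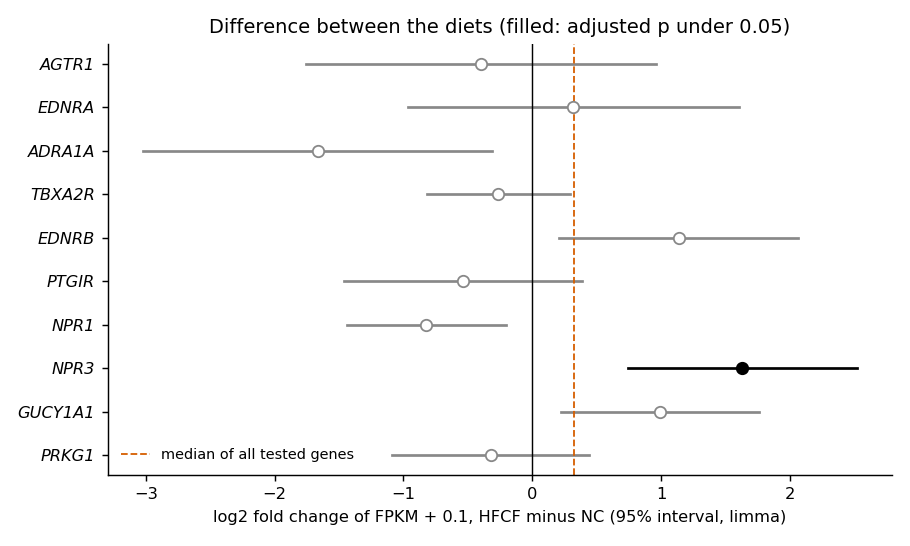
Log2 fold change of FPKM + 0.1 (HFCF minus NC) of the 10 genes with the 95% interval from limma. The filled point is the gene with an adjusted p under 0.05, NPR3 at 1.63, and the dashed line is the median of all tested genes at 0.32.

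Pairs of genes that work together were also compared within each library, where differences in scaling between libraries cancel except through the pseudocount. In 3 of the 6 pairs the groups did not overlap, while 48.2% of all tested genes had no overlap by themselves. Each of these 3 pairs held GUCY1A1 or NPR3, which were among those genes. The share of separated pairs among other pairs of genes was not computed. The log2 ratio of GUCY1A1 to its partner subunit GUCY1B1 was -0.75, -0.57 and -0.76 under normal chow and 0.11, 0.13 and -0.08 under the HFCF diet. The NC pigs thus had less alpha-1 than beta-1 message per length, and the HFCF pigs about equal amounts. GUCY1B1 itself had 5.25, 4.79 and 5.40 FPKM in the NC group and 9.85, 5.15 and 4.51 FPKM after the HFCF diet (log2 difference 0.25, adjusted p = 0.564, by limma), and the other alpha subunit GUCY1A2 stayed under 0.5 FPKM in every pig. The ratio differed by 0.75 between the groups (exact two-sided permutation test, p = 0.1, the smallest possible for 3 against 3 pigs, and 0.178 after adjustment over 16 ratios).

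The log2 ratio of the clearance receptor NPR3 to the signalling receptor NPR1 was -8.84, -8.07 and -8.67 under normal chow and -5.13, -6.60 and -6.49 under the HFCF diet. NPR1 message remained the more abundant in every pig, and the margin was smaller in all HFCF pigs than in all NC pigs. The difference of 2.45 had an exact permutation p of 0.1. NPR3 was less abundant than its pseudocount in no pig, but at these levels the ratio depends on it. The log2 ratio of PRKG1 to GUCY1A1 also separated the groups, at -0.67 ± 0.31 and -1.99 ± 0.97 (SD, n = 3 each; exact permutation p = 0.1). For EDNRB to EDNRA, AGTR1 to EDNRA and TBXA2R to PTGIR the groups overlapped, with exact permutation p-values of 0.4, 0.6 and 0.7. Averaged over the 4 constrictor receptors less the 4 dilator genes, the log2 level was -1.01, -1.49 and -1.83 under normal chow and -1.54, -2.62 and -1.16 under the HFCF diet, so the 2 diets could not be ordered by this balance.

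**Figure D3:**
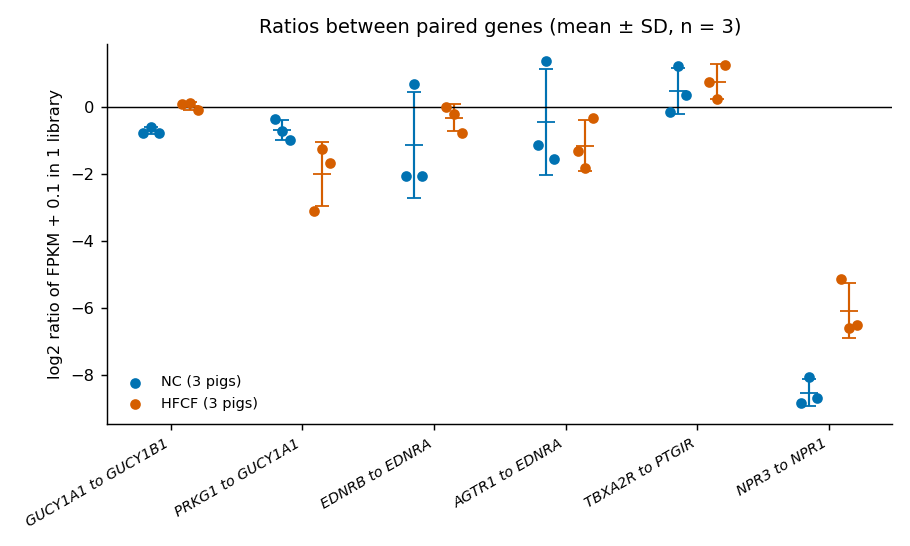
Log2 ratio of FPKM + 0.1 between 2 genes of the same library for 6 pairs, with 1 point per pig and the mean ± SD of each group. The NC and HFCF pigs are apart for GUCY1A1 to GUCY1B1, PRKG1 to GUCY1A1 and NPR3 to NPR1.

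The direction of several members depended on what they were measured against. Rescaling between libraries moved the median of all genes from 0.32 to between -0.06 and 0.08, and the log2 difference of EDNRA then lay between -0.17 and 0.07. ADRA1A and NPR1 were called lower under median-ratio scaling, quantile normalization and rescaling to TPM. Relative to the mean log2 level of the 10 contractile markers of each library, 9 of the 10 genes were higher in the HFCF group. In 6 of them the groups did not overlap, but the share of all tested genes without overlap on that scale was not computed. Only ADRA1A was lower, by a difference of -0.51 that became 0.31 with a pseudocount of 1. On that scale EDNRA, EDNRB, NPR3 and GUCY1A1 were called higher and NPR1 had a log2 difference of 0.33, but 73.1% of all tested genes were called and the median of all genes was 1.48. The log2 difference of NPR3 relative to these markers was 2.79, that of EDNRB 2.29 and that of GUCY1A1 2.15, and those of the other 7 genes did not exceed that median.

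**Figure D4:**
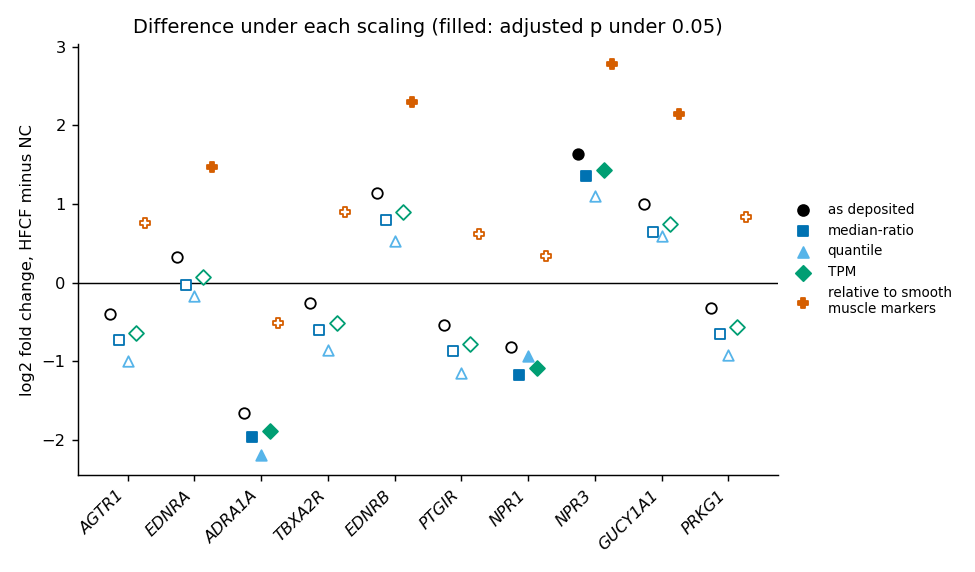
Log2 fold change (HFCF minus NC) of the 10 genes with the deposited values, after 3 rescalings between libraries and relative to smooth muscle markers. Filled symbols have an adjusted p under 0.05. NPR3, EDNRB and GUCY1A1 lie above 0 and ADRA1A below 0 under all 5 scalings shown, while NPR1 is below 0 except relative to smooth muscle markers.

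In order of level, NPR1 came first in both groups, with every pig above every value of the other 9 genes. In the NC group it was followed by EDNRA (3.39 FPKM), GUCY1A1 (3.14), TBXA2R (2.34), AGTR1 (2.24), PRKG1 (1.96), PTGIR (1.71), ADRA1A (1.66), EDNRB (1.30) and NPR3 (0.207). EDNRA overlapped GUCY1A1, and neighbours from TBXA2R down to EDNRB overlapped too, so these cannot be ranked, while NPR3 lay below all. In the HFCF group every value of GUCY1A1 (mean 6.84 FPKM) lay above every value of EDNRA (3.51). EDNRB (2.88) had the next mean and ADRA1A (0.434) the lowest, and neighbours from EDNRA downwards overlapped. Across the 6 libraries the genes most like GUCY1A1 in log2 level were STMN1, TRDC and TRERF1, with Pearson correlations of 0.999, 0.998 and 0.997 among 10083 named genes with a mean of at least 1 FPKM. Those most like AGTR1 were HES1, CITED1 and VEGFD, with correlations of 0.990, 0.989 and 0.982. With 6 libraries in 2 groups these correlations are descriptions only, and like AGTR1 the last 3 genes had their lowest NC value in the third pig and their lowest HFCF value in the second.

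The ligands and enzymes upstream of these receptors were mostly not called. None of the 5 tested constrictor ligands and enzymes was called by limma, and none had an unadjusted p under 0.05. Angiotensinogen (AGT) had 4.49, 8.60 and 0.661 FPKM in the NC pigs and 1.89, 0.755 and 2.47 FPKM in the HFCF pigs, and the 2 NC pigs with the highest adipocyte marker sums had the most. Angiotensin converting enzyme (ACE) ranged from 7.88 to 17.1 FPKM and from 5.67 to 39.3 FPKM, with log2 difference 0.20 (adjusted p = 0.844, by limma). Renin, at a mean of 0.00142 FPKM, and the type 2 angiotensin receptor AGTR2, at 0.0114 FPKM, were too low to be tested. Endothelin-1 (EDN1) ranged from 10.25 to 26.8 FPKM in the NC group and from 10.7 to 43.4 FPKM in the HFCF group, and its converting enzyme ECE1 from 27.8 to 55.2 FPKM and from 30.5 to 52.4 FPKM. Both overlapped between the groups, with adjusted p-values of 0.942 and 0.746 (limma). Thromboxane synthase (TBXAS1) stood at 3.01 FPKM in the first HFCF pig, against 0.216 to 0.390 FPKM elsewhere.

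On the dilator side, endothelial nitric oxide synthase (NOS3) had 37.0, 51.9 and 24.6 FPKM in the NC pigs and 16.2, 30.6 and 10.01 FPKM in the HFCF pigs, with a log2 difference of -1.08 (adjusted p = 0.104, by limma) and overlapping groups. Prostacyclin synthase (PTGIS) was abundant in both groups, at 95.03 ± 23.7 and 85.8 ± 28.6 FPKM (SD, n = 3 each). Of the natriuretic peptides, NPPA was not analysed here, NPPB was listed at 0 in all libraries and NPPC had a mean of 0.0148 FPKM. NPR2, the receptor for C-type natriuretic peptide, had 21.3 ± 3.53 and 23.8 ± 4.07 FPKM, and PDE5A, which breaks down cyclic GMP, had 8.64 ± 1.71 and 9.08 ± 0.615 FPKM (SD, n = 3 each), with adjusted p-values of 0.552 and 0.754 (limma). Of 8 tested dilator ligands and enzymes, 1 was called, against 28.9% of all tested genes. This was apelin (APLN), a dilator peptide, which rose from 0.146 ± 0.154 to 2.46 ± 2.09 FPKM (SD, n = 3 each, adjusted p = 0.0189, by limma). Its adjusted p was 0.0733 without the first NC pig and 0.0562 without the third.

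Of 20 other constrictor receptors, 2 fell, 2 rose and 16 were not called, so that 10% were lower and 10% higher, against 6.16% and 22.8% of all tested genes. The alpha-1D adrenoceptor ADRA1D fell from 11.6 ± 6.35 to 2.30 ± 0.723 FPKM (SD, n = 3 each), and their log2 difference was -2.20 (SE 0.39, adjusted p = 0.00808, by limma). Together with ADRA1A, and with ADRA1B at 8.23 ± 3.76 against 4.08 ± 1.03 FPKM (adjusted p = 0.126, by limma), all 3 alpha-1 adrenoceptors had lower HFCF means, but only ADRA1D passed. The vasopressin receptor AVPR1A fell from 3.78 ± 0.560 to 0.773 ± 0.425 FPKM, with a log2 difference of -2.26 (adjusted p = 0.00741, by limma). The calls of ADRA1D and AVPR1A were kept in all 16 alternatives. The receptors that rose were P2RY6 for uridine nucleotides and CYSLTR1 for cysteinyl leukotrienes, both also known from leukocytes. They rose by 2.78 and 2.56 on the log2 scale (adjusted p = 0.00644 and 0.0146, by limma), and the part of cell content in this was not tested. Without the first NC pig the adjusted p of CYSLTR1 was 0.0536 (limma).

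Of 19 transducers downstream of constrictor receptors, 5 rose, 1 fell and 13 were not called. The shares of 26.3% higher and 5.26% lower were near those of all tested genes, 22.8% and 6.16%. GNAQ, the alpha subunit of Gq, rose from 1.51 ± 0.223 to 5.81 ± 2.39 FPKM (SD, n = 3 each, adjusted p = 0.00729, by limma), and GNA13, the alpha subunit of G13, rose by 1.51 on the log2 scale (adjusted p = 0.0249, by limma). PLCB2, a phospholipase C known mainly from blood cells, had the largest rise, 3.71 on the log2 scale (adjusted p = 0.00205, by limma). PPP1R14A (CPI-17), a smooth muscle inhibitor of myosin phosphatase, rose from 187.9 ± 22.8 to 488.7 ± 179.8 FPKM (adjusted p = 0.0174, by limma). GNA12 fell from 41.1 ± 5.65 to 19.9 ± 3.84 FPKM (adjusted p = 0.00902, by limma). GNAQ and PLCB2 kept their calls in all 16 alternatives. That of PPP1R14A was lost in 4, among them the fits without the first NC pig (adjusted p = 0.0546), the third NC pig (0.0539) and the second HFCF pig (0.0539), and that of GNA13 was lost in 7. These were the 3 rescalings and the fits without the first or second NC pig or the first or the third HFCF pig. The call of GNA12 was lost relative to the smooth muscle markers, where its log2 difference was 0.10.

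Of 18 tested dilator effectors, 4 fell, 1 rose and 13 were not called, which is 22.2% lower and 5.56% higher, against 6.16% and 22.8% of all tested genes. Over the whole dilator list of 41 tested genes, 4 were higher and 4 lower, but 3 were higher and 8 lower after median-ratio scaling, 2 and 6 by quantiles and 3 and 6 as TPM. KCNMB1, the beta-1 subunit of the large-conductance potassium channel of smooth muscle, fell from 221.1 ± 16.7 to 91.2 ± 25.9 FPKM (SD, n = 3 each), and their log2 difference was -1.32 (SE 0.23, adjusted p = 0.00781, by limma). IRAG1, the substrate through which PRKG1 restrains calcium release, fell from 65.3 ± 15.4 to 29.2 ± 4.51 FPKM, with a log2 difference of -1.14 (adjusted p = 0.0106, by limma). Relative to the smooth muscle markers the log2 differences of KCNMB1 and IRAG1 were -0.16 and 0.01, and this was the 1 alternative of 16 in which either lost its call. The myosin phosphatase subunit PPP1R12B and the adenylyl cyclase ADCY5 fell by 0.79 and 0.81 on the log2 scale (adjusted p = 0.03 and 0.0321, by limma). Their calls were kept in 8 of 16 alternatives each and lost without the first or second NC pig or the first or second HFCF pig. Relative to the smooth muscle markers the log2 differences of PPP1R12B and ADCY5 turned to 0.37 and 0.35. PRKAR1A, a regulatory subunit of the kinase activated by cyclic AMP, rose by 0.53 (adjusted p = 0.0289, by limma), a call kept in 6 of 16 alternatives and lost in all but 1 of the fits that left out a pig. Among 15 other dilator receptors, 2 rose. CALCRL, the receptor for calcitonin gene-related peptide and adrenomedullin, went from 0.484 ± 0.184 to 3.00 ± 0.776 FPKM (adjusted p = 0.00369, by limma), and PTGER4 rose by 1.62 on the log2 scale (adjusted p = 0.0201, by limma), a call that was lost in 3 alternatives, with an adjusted p of 0.0565 without the first NC pig and 0.0521 without the first HFCF pig.

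Among 27 genes that limit these signals, 5 rose and none fell by limma at an adjusted p under 0.05, while 1 was lower at an unadjusted p under 0.05. This split depended on the scaling, with 2 higher and 2 lower by median ratios, and 2 higher and 1 lower both by quantiles and as TPM. The arrestins ARRB1 and ARRB2, which desensitize receptors and are also abundant in leukocytes, rose by 1.86 and 2.71 on the log2 scale (adjusted p = 0.00947 and 0.00198, by limma). RGS2, which shuts off Gq, had 227.8, 135.6 and 53.4 FPKM in the NC pigs and 552.6, 309.7 and 439.2 FPKM in the HFCF pigs (log2 difference 1.83, adjusted p = 0.035, by limma). The phosphodiesterases PDE1A and PDE3B rose by 0.76 and 0.89 on the log2 scale (adjusted p = 0.0176 and 0.0318, by limma). Calls of RGS2, PDE1A and PDE3B were each lost in 8 to 10 of the 16 alternatives, the rescalings between libraries and the fits without the second NC pig or the second HFCF pig included. In all, 22.7% of the constrictor list, 19.5% of the dilator list and 18.5% of the limiting genes were called, against 28.9% of all tested genes.

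**Figure D5:**
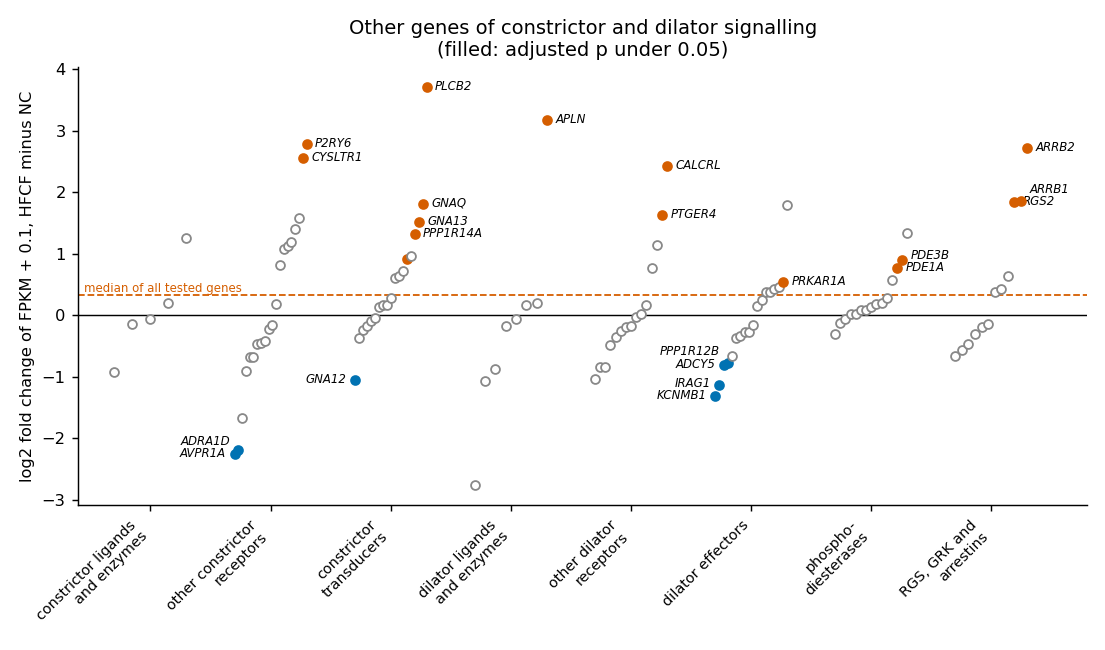
Log2 fold change of FPKM + 0.1 (HFCF minus NC) of the tested genes of 8 lists beyond the 10 genes, with 1 point per gene. Filled points have an adjusted p under 0.05 and are named except for 1 transducer, and the dashed line is the median of all tested genes at 0.32. ADRA1D and AVPR1A are the lowest called points, and PLCB2 and APLN the highest.

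The table also annotates KEGG pathways. Of 95 tested genes in the KEGG pathway of vascular smooth muscle contraction, which holds 7 of the 10 members, 13 were called higher and 13 lower, with a median log2 difference of -0.17. Both shares were 13.7%, against 22.8% of all genes called higher and 6.16% called lower. In the cGMP-PKG signaling pathway 20 of 133 tested genes were higher and 18 lower, a share called lower of 13.5% and a median of -0.09. In the renin-angiotensin system 2 of 15 tested genes were called, both higher. These were the prorenin receptor ATP6AP2, which rose by 1.18 on the log2 scale, and the lysosomal carboxypeptidase PRCP, which rose by 1.83 (adjusted p = 0.00191 and 0.00272, by limma).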

How the data were processed

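Abdominal aorta RNA of 3 NC and 3 HFCF pigs was compared. According to the methods and the submitters' processing notes, reads were trimmed with cutadapt 1.9, aligned with HISAT2 and assembled with StringTie, and the authors deposited FPKM values per gene, in which 0.0001 was read as 0. Read totals are not given in the sources used here, so relative depths were estimated from the steps between FPKM values under 0.3, and no counting interval is given. FPKM makes each gene a share of its library. From the deposited values, log2(FPKM + 0.1) was fitted with limma 3.58.1 in R 4.3.3 (a 2-group design, moderated with a mean-variance trend) over 15384 genes and was tested on simulated data. Same-numbered pigs did not deviate together (correlations of 0.021, -0.079 and -0.072), so the main analysis had no block. Ratios were compared with exact permutation tests in scipy 1.17.1.

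The members and lists were chosen with earlier results of these data known. Named besides the members were their direct partners, whatever their values, and, per family of lists, up to 3 called genes in each direction with a mean of at least 1 FPKM. Other called genes were named after their values were seen, and 1 called transducer is not reported here. Of the listed symbols, 15 had no row, and 4 were matched through Ensembl identifiers. The methods name a build for which no annotation was used here, so no coordinates or sequences are given. The marker lists for fibroblasts and T or B cells had 1 and 2 genes called higher. Those for pericytes, Schwann cells, skeletal muscle and red blood cells had 0. The pericyte and adipocyte lists had 1 called lower each. Alternatives were other pseudocounts (0.01 and 1), no filter or a mean of at least 1 FPKM, 3 rescalings, the smooth muscle reference, no trend, the block and each pig left out.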

Additional observations from a re-analysis of the deposited data

How the results depend on the processing

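In the main analysis 1 member was called, against 28.9% of all tested genes. There were 3 by median-ratio scaling (26.0% of all genes), 2 by quantiles (23.0%), 3 as TPM (24.4%) and 4 relative to smooth muscle markers (73.1%). The fold and p limits of the study, applied with limma p-values, passed 4 (25.5%), and 0 to 2 were called with 1 pig left out (15.7% to 23.7%). With the replicate block 1 was called (18.0%), ADRA1A in place of NPR3. The 3 rescalings and the smooth muscle reference changed the scale of all genes, and other causes were not tested. The log2 difference of EDNRA turned to -0.026 by median-ratio scaling and -0.17 by quantiles, and ranged from -0.31 to 0.85 with 1 pig left out. Relative to smooth muscle markers, AGTR1, TBXA2R, PTGIR, NPR1 and PRKG1 turned to 0.76, 0.89, 0.62, 0.33 and 0.83. AGTR1 ranged from -0.87 to 0.083 with 1 pig left out. The median of the constrictor members was -0.93 after quantile normalization and 0.83 relative to smooth muscle markers, and -0.62 (without the third HFCF pig) to -0.095 (without the second) with 1 pig left out. That of the dilator members was -0.76 by median ratios, -0.93 by quantiles and 0.73 relative to smooth muscle markers, and -0.71 to -0.26 with 1 pig left out.

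Of the wider lists, the constrictor genes called were 10 of 44 tested in the main analysis. They were 32 relative to smooth muscle markers and 6 to 12 with 1 pig left out. Of all tested genes, 28.9%, 73.1% and 15.7% to 23.7% were called in these settings. The dilator genes called were 8 of 41 tested in the main analysis. They were 21 relative to smooth muscle markers, 5 without a variance trend (26.9% of all genes) and 3 to 8 with 1 pig left out. The limiting genes called were 5 of 27 tested in the main analysis, 19 relative to smooth muscle markers and 2 to 6 with 1 pig left out. They were 3 with no filter (17.2% of all genes), by quantiles (23.0%), as TPM (24.4%) and with the replicate block (18.0%). The differences in the ratios of TBXA2R to PTGIR and of AGTR1 to EDNRA ranged from -0.036 to 0.65 and -1.28 to 0.19 with 1 pig left out, and that of ADRA1A to smooth muscle markers was 0.31 with a pseudocount of 1. Among all genes, the share of calls that were higher in the HFCF group was 78.7%, and it was 50.8% by median ratios, 50.2% by quantiles and 59.2% as TPM. Without counts, genes near 0.1 FPKM such as NPR3 in the NC group have an unknown counting error.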
